A study of Mus musculus with 6 samples.

Results

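The genes described here carry arginine into macrophages or handle it and its products there, and all 10 of them are among the 25124 genes that the series lists. They were chosen by symbol: the cationic amino acid transporters Slc7a1 and Slc7a2, the arginases Arg1 and Arg2, the inducible nitric oxide synthase Nos2, the citrulline recycling enzymes Ass1 and Asl, the ornithine aminotransferase Oat, and Gatm and Ckb of the creatine pathway. RAW264.7 is an established mouse line with macrophage features. The version sequenced here was a control line that had received a plasmid for the nuclease Cas9 with no guide RNA, made to be set beside a knockout of E4BP4. The M2 group was the same line given IL-4 at 10 ng/ml, and the M0 group was the same line without IL-4. Both groups grew in medium with 25 mM glucose and 10% serum, and each has 3 libraries of poly(A) RNA. The labels give neither the hours of IL-4 treatment nor whether the replicates were separate cultures, so each p-value reflects the spread among these libraries alone, and that spread may be technical.

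Arginine is imported mainly by the cationic amino acid transporters and then stands at a branch point. Arginase splits it into ornithine and urea, and ornithine feeds polyamines and proline. Nitric oxide synthase turns arginine into nitric oxide and citrulline, and Ass1 and Asl rebuild arginine from that citrulline. Gatm moves the amidino group of arginine onto glycine in the first step of creatine synthesis, which also releases ornithine. High Arg1 is a standard mark of alternatively activated mouse macrophages, and high Nos2 a mark of classically activated ones.

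Levels are given in TPM, the authors' measure of transcript abundance per length and depth, so that genes can be set against each other. Reads recovered from TPM and model length, over the listed genes only, came to 18139902 to 19511192 per M2 library and 15615639 to 18110568 per M0 library. The TPM of the listed genes summed to 550163 to 559556 per M2 library and 551257 to 555447 per M0 library. The labels add a note of re-analysis to each M0 library and to no M2 library; a batch that this note may mark cannot be told apart from the effect of IL-4. The 7 macrophage markers checked summed to 2115 to 2222 TPM in M2 and 2328 to 2541 TPM in M0. They did not move together in the limma fit described below. Adgre1 rose in M2 (log2 fold change 0.94, adjusted p = 3.04e-04 by limma). Itgam (-0.35, adjusted p = 0.0181) and Ptprc (-0.37, adjusted p = 0.00926) fell, and Cd68, Csf1r, Spi1 and Lyz2 did not pass. The 4 hepatocyte markers, of a cell type known for high Arg1, Ass1 and Asl, summed to at most 0.125 TPM in M2 and 0.076 TPM in M0. Fibroblast, T cell, B cell, epithelial and granulocyte markers each summed to at most 5.75 TPM in M2 and 5.85 TPM in M0, with Cd2 and Krt8 at 0 in every library. M2 replicate 3 stood apart in long transcripts: over 1054 tested genes with models of at least 6000 bases, its median difference from the other M2 libraries was -0.35 on log2(TPM + 1), against 0.03 for 2665 genes with models of at least 1000 and under 2000 bases.

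Of the 10 genes, 8 passed the filter of at least 1 TPM in at least 3 libraries and were tested with limma on log2(TPM + 1), with p-values adjusted over all 11202 genes tested. At an adjusted p under 0.05, Arg1, Slc7a2, Gatm and Oat rose in M2, Ass1, Asl and Ckb fell, and Slc7a1 did not pass. Of all tested genes 43.7% were called, 20.1% upward and 23.7% downward, and these shares are the background for the 7 of 8. The groups did not overlap for 55.9% of all tested genes, which is the background wherever that is stated below for a single gene. In the authors' deposited table the same 7 of the 10 had an adjusted p under 0.05, as did 26.4% of its 19143 genes with an adjusted p. The median log2 fold change of the 8 was 0.17, against -0.03 over all tested genes. By size of change Arg1 and Slc7a2 ranked 3 and 4 of the 11202 and Gatm ranked 154, and 2.45% of all tested genes were called with at least a 2-fold change on that scale. Ass1 ranked 1487, Ckb 1814, Oat 3817, Asl 3843 and Slc7a1 10501. RNA was taken from whole cultures, so a change in the share of cells that express a gene and a change in RNA per cell cannot be told apart.

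**Figure D1:**
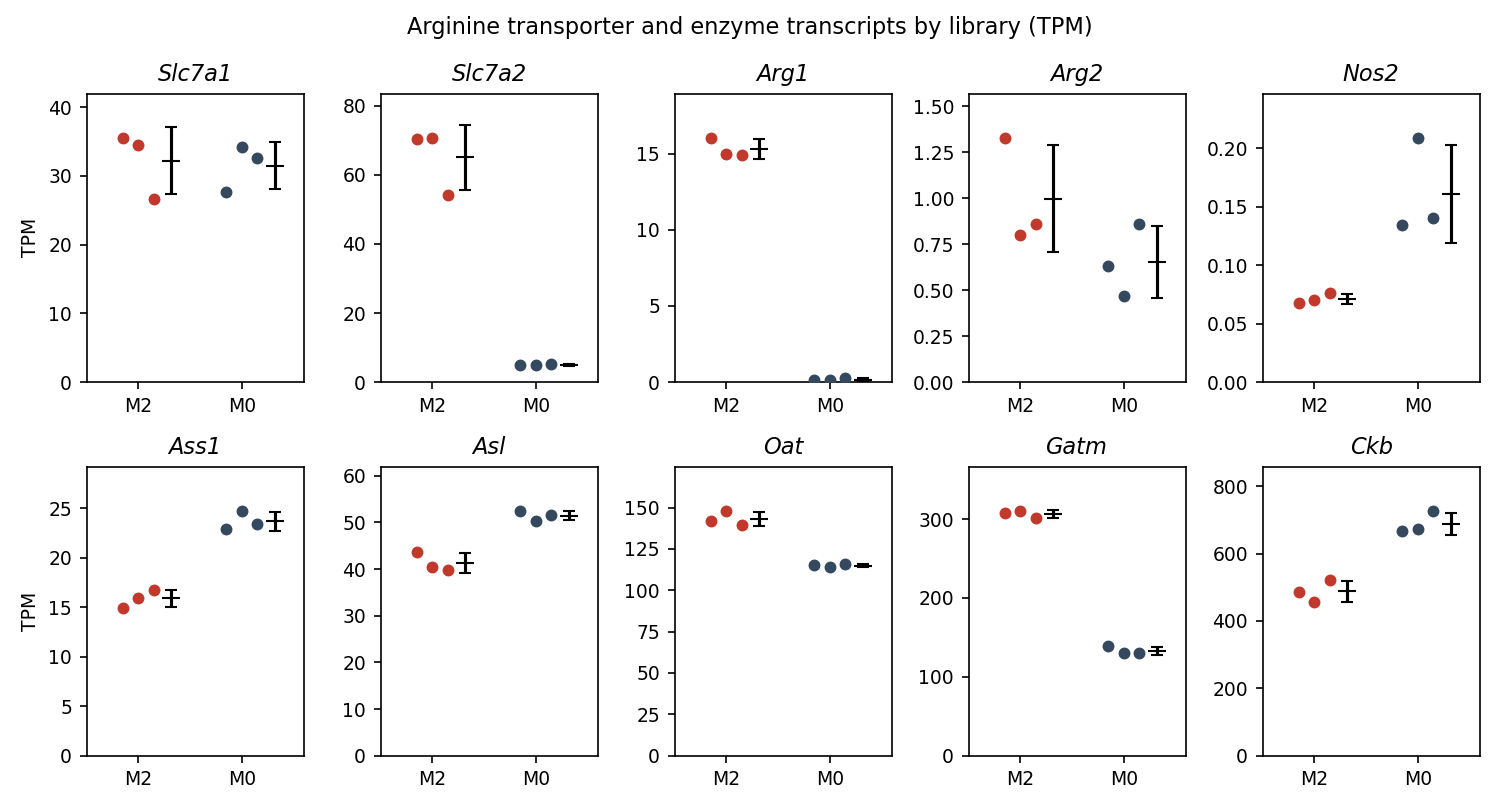
TPM of the 10 genes in each library. In each panel the dots are replicates 1, 2 and 3 from left to right, M2 in red and M0 in dark blue, and the bar beside them is the mean with its SD; each TPM axis starts at 0 and has its own range. Arg1, Slc7a2, Gatm and Oat lie higher in every M2 library than in any M0 library. Ass1, Asl, Ckb and Nos2 lie lower, and Slc7a1 and Arg2 overlap. Of all 11202 tested genes, 55.9% had groups that did not overlap.

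The 2 cationic amino acid transporter transcripts differed between the groups in their balance. Slc7a2 encodes CAT-2, the transporter that activated macrophages induce. It had 70.2, 70.8 and 54.0 TPM in M2 replicates 1, 2 and 3, against 4.84, 4.98 and 5.23 TPM in the M0 replicates. Every M2 library lay more than 10 times as high as any M0 library, and the lowest M2 value was that of replicate 3. The rise was 13.0-fold by mean TPM and 3.45 on log2(TPM + 1) (SE 0.11, adjusted p = 3.12e-07 by limma), on 23846 reads over the M2 libraries and 1703 over the M0 libraries. By GENCODE M21, 635 of its 9135 exon bases overlap the antisense gene Gm26584, whose reads cannot be told apart from those of Slc7a2 without strand. Without M2 replicate 3 the log2 fold change was 3.57.

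Slc7a1 encodes CAT-1, the transporter that most cell types express. It had 35.6, 34.5 and 26.6 TPM in M2 replicates 1, 2 and 3, against 27.7, 34.3 and 32.6 TPM in the M0 replicates. The groups overlapped, with M2 replicate 3 lowest of the 6 libraries and M2 replicate 1 highest. Its log2 fold change was 0.03 with a 95% interval of -0.24 to 0.29 (adjusted p = 0.880 by limma), so a change of up to about that size in either direction is within the error. Both transporters have long models, of 7706 bases for Slc7a2 and 7048 for Slc7a1, and in M2 replicate 3 they lay -0.38 and -0.39 from the other M2 libraries on the log2 scale, close to the median of the long genes given above. The part of transcript length in these values was not tested beyond leaving that library out, which gave Slc7a1 a log2 fold change of 0.15 (adjusted p = 0.164).

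The share of Slc7a2 in the summed TPM of both transporters varied little within groups. It was 66.4%, 67.2% and 67.0% in M2 replicates 1, 2 and 3, against 14.9%, 12.7% and 13.8% in the M0 replicates. Slc7a2 was thus the lesser transporter transcript in each M0 library and the greater in each M2 library. The difference of 53.1 percentage points gave p = 0.1 in an exact two-sided permutation test, the smallest p that 3 against 3 libraries allow. The sum of both was 97.2 ± 14.4 TPM in M2 and 36.5 ± 3.51 TPM in M0 (SD, n = 3 each), 2.66-fold higher in M2.

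**Figure D2:**
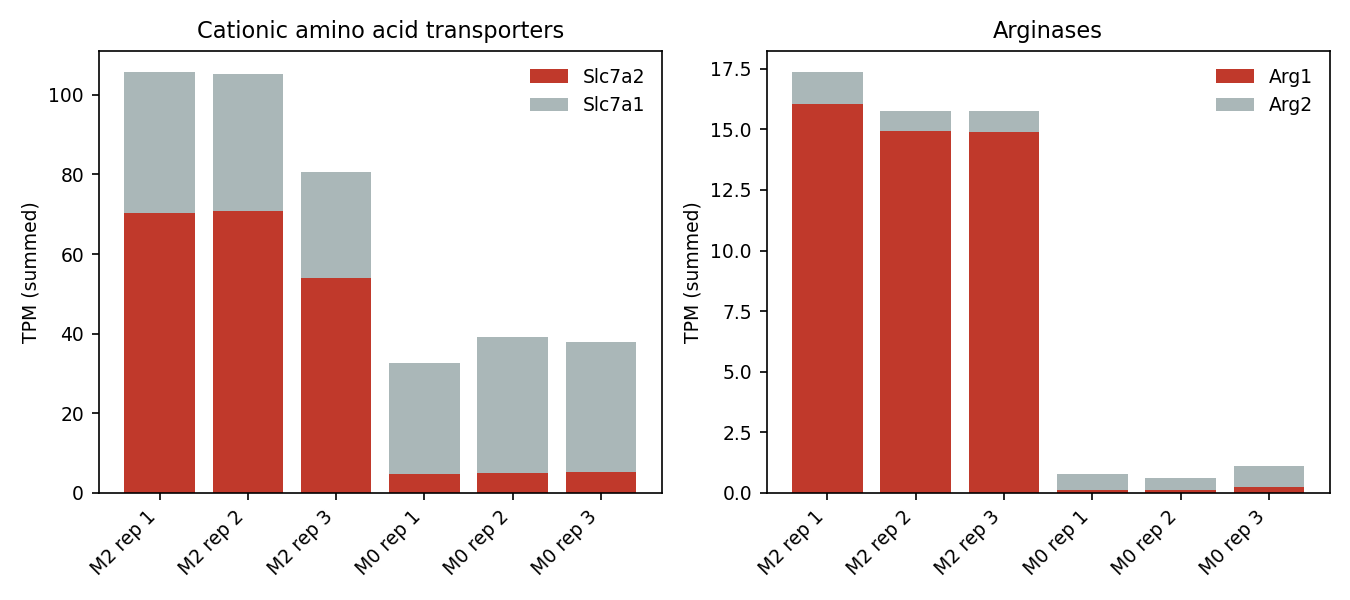
Summed TPM of the 2 cationic amino acid transporters (left) and of the 2 arginases (right) in each library, stacked by gene; both axes start at 0. Slc7a2 made up 66.4% to 67.2% of the transporter sum in M2 and 12.7% to 14.9% in M0, and Arg1 made up 92.4% to 94.9% of the arginase sum in M2 and 17.1% to 23.0% in M0.

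Slc7a2 is transcribed in 2 coding forms that exchange a single internal exon, which in the mouse is the known difference between the low-affinity CAT-2A and the high-affinity CAT-2B proteins. The deposited value is 1 per gene and cannot tell them apart. The authors' model is NM_001044740, on mm10 at chromosome 8, 40862367 to 40922070, plus strand, and by the GENCODE M21 tables it pairs with the transcript that has the exon of 140 bases. The other form has an exon of 137 bases in its place. The exons, in capitals, shared 84 of 140 aligned positions (60.0%), and both are shown because reads within them would separate the forms. The 12 bases on each side, in lower case, come from the neighbouring exons that both forms share.
Exon of 140 bases, GRCm38 chr8:40908056-40908195, plus strand: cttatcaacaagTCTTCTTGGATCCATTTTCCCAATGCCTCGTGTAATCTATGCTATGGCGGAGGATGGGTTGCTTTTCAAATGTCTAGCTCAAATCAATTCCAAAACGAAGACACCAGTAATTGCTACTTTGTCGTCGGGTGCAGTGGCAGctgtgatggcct
Exon of 137 bases, GRCm38 chr8:40908398-40908534, plus strand: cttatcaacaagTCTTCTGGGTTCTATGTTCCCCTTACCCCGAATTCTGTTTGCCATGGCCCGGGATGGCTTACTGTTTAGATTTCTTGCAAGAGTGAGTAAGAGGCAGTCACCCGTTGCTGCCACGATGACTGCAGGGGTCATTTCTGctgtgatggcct

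The 2 deposited tables measure Slc7a1 on models with different starts. The TPM table uses NM_001301424, chromosome 5, 148327410 to 148392815, minus strand, and the authors' comparison table uses NM_007513, which ends at 148399904 and so starts further upstream. In the authors' deposited table, on that other model, the log2 fold change of Slc7a1 was 0.07 (adjusted p = 0.651). The windows below, from RefSeq on GRCm38.p6, run from 250 bases before to 50 bases after each start, and are shown because they are the promoters of those models. The upstream window held 27 CpG and 65% G or C, and the downstream one 7 CpG and 51.7%. The motif TTCNNNGAA, a spacing that STAT proteins bind, occurs in the downstream window at position -146 from the start, in capitals.
Slc7a1 upstream start, chr5:148399855-148400154, minus strand: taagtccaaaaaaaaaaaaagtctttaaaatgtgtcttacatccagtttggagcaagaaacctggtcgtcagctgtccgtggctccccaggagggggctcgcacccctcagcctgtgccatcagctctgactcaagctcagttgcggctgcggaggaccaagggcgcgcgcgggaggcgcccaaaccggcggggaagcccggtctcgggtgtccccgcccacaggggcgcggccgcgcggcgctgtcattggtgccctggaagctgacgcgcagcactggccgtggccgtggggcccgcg
Slc7a1 downstream start, chr5:148392766-148393065, minus strand: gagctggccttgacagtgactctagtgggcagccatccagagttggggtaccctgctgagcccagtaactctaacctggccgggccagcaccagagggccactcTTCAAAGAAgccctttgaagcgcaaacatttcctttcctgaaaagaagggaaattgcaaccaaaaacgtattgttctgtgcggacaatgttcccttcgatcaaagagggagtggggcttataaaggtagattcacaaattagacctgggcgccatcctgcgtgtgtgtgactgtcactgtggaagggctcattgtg

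The STAT6 spacing, TTC and GAA with 4 bases of any kind between them, and TTCNNNGAA were searched in all 6 windows found for these genes (Ass1, Gatm, Oat and Ckb with 1 each, Slc7a1 with 2). Both motifs read the same on either strand, and they do not overlap in any of these windows. The STAT6 spacing occurred in 0 of the 6 and in 6.95% of all 32851 windows, and TTCNNNGAA in 1 of the 6 and in 8.30% of all. No match says only that these letters are not in this window. Arg1, Arg2, Slc7a2, Asl and Nos2 were not matched to a window.

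Arginase transcripts were low in M0 and came almost wholly from Arg1 in M2. Arg1 encodes the cytosolic arginase. It had 16.0, 14.9 and 14.9 TPM in M2 replicates 1, 2 and 3, against 0.130, 0.135 and 0.257 TPM in the M0 replicates. These values rest on 365, 330 and 380 reads in M2, against 3, 3 and 5 reads in M0, and the groups lie far apart. The rise was 87.9-fold by mean TPM and 3.80 on log2(TPM + 1), a scale that understates low genes (SE 0.094, adjusted p = 1.26e-07 by limma). By reads per library total it was 90.5-fold with an exact 95% interval of 50.4 to 182 that covers counting error only. The authors' deposited table gives a log2 fold change of 6.53 (adjusted p = 4.18e-44). The model is NM_007482, chromosome 10, 24915207 to 24927470, minus strand.

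Slc7a2 held 4.25 ± 0.565 times the TPM of Arg1 in M2 and 31.5 ± 9.65 times in M0 (SD, n = 3 each).

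Arg2 encodes the mitochondrial arginase and lay below the filter. It had 1.33, 0.802 and 0.858 TPM in M2 replicates 1, 2 and 3, against 0.632, 0.469 and 0.858 TPM in the M0 replicates, so that the groups overlapped. With 67 reads over M2 and 40 over M0, the ratio by library total was 1.55, with an exact 95% interval of 1.03 to 2.35 for counting error only. With a lower filter of 0.5 TPM it was tested and did not pass (adjusted p = 0.155 by limma), nor did it pass in the authors' deposited table (adjusted p = 0.285). Its 3′ end overlaps 285 exon bases of Vti1b, a gene on the opposite strand that had 116 to 135 TPM in M2 and 113 to 119 TPM in M0, and no source used here states whether counting used strand, so reads of Arg2 and Vti1b over those bases cannot be told apart by strand. Arg2 stayed at 1.33 TPM or less beside that level of Vti1b, and how many of its few reads lie there was not tested.

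Arg1 made up 92.4%, 94.9% and 94.6% of arginase TPM in M2 replicates 1, 2 and 3, against 17.1%, 22.4% and 23.0% in the M0 replicates. By these values Arg2 was the greater arginase transcript in each M0 library and Arg1 in each M2 library (exact two-sided permutation p = 0.1, the smallest possible). The M0 shares rest on 3, 3 and 5 reads of Arg1 and 14, 10 and 16 reads of Arg2. The part of those Arg2 reads that lies on bases shared with Vti1b was not tested. The sum of both arginases was 16.3 ± 0.941 TPM in M2 and 0.827 ± 0.262 TPM in M0 (SD, n = 3 each), 19.7-fold higher in M2.

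Nos2, which encodes the enzyme that makes nitric oxide from arginine, was near the limit of detection in both groups. It had 0.0680, 0.0700 and 0.0760 TPM in M2, on 4, 4 and 5 reads, against 0.134, 0.209 and 0.140 TPM in M0, on 8, 12 and 7 reads. The groups did not overlap, as was so for 55.9% of all tested genes. By reads per library total the M2 level was 0.446 times that of M0, with an exact 95% interval of 0.211 to 0.894 for counting error only. It was not tested with the filter. Without a filter on low values it passed as lower in M2 (log2 fold change -0.12, adjusted p = 0.0439 by limma), while in the authors' deposited table it did not (log2 fold change -1.02, adjusted p = 0.258). That table counts it on another model, NM_010927 in place of NM_001313922.

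The citrulline recycling enzymes both fell. Ass1, argininosuccinate synthase, joins citrulline to aspartate. It had 15.0, 15.9 and 16.7 TPM in M2, against 22.9, 24.7 and 23.4 TPM in M0. All M2 libraries lay under all M0 libraries, and the level was 1.49-fold lower in M2 (log2 fold change -0.55, SE 0.070, adjusted p = 3.76e-04 by limma). Asl, argininosuccinate lyase, releases arginine from the product. It had 43.7, 40.4 and 39.7 TPM in M2, against 52.4, 50.4 and 51.6 TPM in M0. Again the groups did not overlap, and the level was 1.25-fold lower (log2 fold change -0.31, SE 0.059, adjusted p = 0.00284 by limma). Asl held 2.61 ± 0.281 times the TPM of Ass1 in M2 and 2.18 ± 0.128 times in M0 (SD, n = 3 each).

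A second row of the TPM table lies on Ass1. The row named Gm5424, which GENCODE M21 annotates as a processed pseudogene on chromosome 10, is placed in the file at chromosome 2, 31470308 to 31520629, plus strand, inside the Ass1 model at 31470270 to 31520670. It had 359, 375 and 452 reads in M2, against 564, 590 and 485 in M0, where Ass1 had 374, 387 and 470 in M2 and 581, 604 and 500 in M0. Over 1240 aligned bases the GENCODE transcripts of Ass1 and Gm5424 are 99.5% identical. As placed, the Gm5424 row lies within Ass1 and holds nearly the same reads, so it gives no separate value for the chromosome 10 copy. How reads that match both places were assigned is not stated, so reads of the copies cannot be told apart. The Ass1 promoter window, from RefSeq on GRCm38.p6 with the same layout as above, held 27 CpG and 74% G or C, and is shown as that of a recycling enzyme that fell.
Ass1, chr2:31470020-31470319, plus strand: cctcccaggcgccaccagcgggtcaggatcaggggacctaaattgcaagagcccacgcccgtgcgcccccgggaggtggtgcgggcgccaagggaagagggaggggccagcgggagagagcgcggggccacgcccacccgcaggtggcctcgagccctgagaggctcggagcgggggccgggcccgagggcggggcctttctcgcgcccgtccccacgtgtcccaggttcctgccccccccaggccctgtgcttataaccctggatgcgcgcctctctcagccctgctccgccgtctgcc

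Oat encodes ornithine aminotransferase, the mitochondrial enzyme that links ornithine to glutamate and proline. It had 142, 148 and 140 TPM in M2 replicates 1, 2 and 3, against 115, 114 and 116 TPM in the M0 replicates. Every M2 library lay above every M0 library, by a small margin that was large against the spread within groups. The rise was 1.25-fold (log2 fold change 0.31, SE 0.050, adjusted p = 0.00119 by limma). Oat and Ass1 thus moved apart: Oat had 9.03 ± 0.608 times the TPM of Ass1 in M2 and 4.86 ± 0.226 times in M0 (SD, n = 3 each; exact two-sided permutation p = 0.1, the smallest possible).

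In the creatine pathway the first enzyme rose and the creatine kinase fell. Gatm encodes the amidinotransferase that makes guanidinoacetate, the precursor of creatine, from arginine and glycine. It had 308, 310.2 and 301 TPM in M2 replicates 1, 2 and 3, against 139, 129.7 and 131 TPM in the M0 replicates. The groups were far apart, with a coefficient of variation of 1.55% in M2 and 3.79% in M0. The rise was 2.30-fold (log2 fold change 1.20, SE 0.052, adjusted p = 1.43e-06 by limma), and Gatm was the most abundant of the 4 members that rose. The model is NM_025961, chromosome 2, 122594473 to 122611277, minus strand. Its promoter window, from RefSeq on GRCm38.p6, is shown as that of the gene with the largest rise among those with a window, and held 22 CpG and 60.7% G or C.
Gatm, chr2:122611228-122611527, minus strand: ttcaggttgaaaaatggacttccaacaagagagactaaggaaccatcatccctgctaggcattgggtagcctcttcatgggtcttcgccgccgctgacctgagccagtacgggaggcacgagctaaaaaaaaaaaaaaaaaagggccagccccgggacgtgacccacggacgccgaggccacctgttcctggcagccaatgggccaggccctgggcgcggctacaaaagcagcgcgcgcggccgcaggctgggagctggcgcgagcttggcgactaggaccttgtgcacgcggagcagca

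Ckb encodes the brain-type creatine kinase, which uses creatine rather than arginine and buffers ATP. It had 486, 456 and 520.4 TPM in M2 replicates 1, 2 and 3, against 666, 671 and 726 TPM in the M0 replicates. No libraries overlapped between groups, and Ckb stayed the most abundant of the 10 transcripts in both. It was 1.41-fold lower in M2 (log2 fold change -0.50, SE 0.068, adjusted p = 5.24e-04 by limma). Ckb had 1.59 ± 0.130 times the TPM of Gatm in M2 and 5.18 ± 0.377 times in M0 (SD, n = 3 each; exact two-sided permutation p = 0.1, the smallest possible). Transcripts of the pseudogenes Gm12892 and Ckb-ps1 match 373 bases of Ckb at 98.9% and 92.0% identity, so reads there may be shared.

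The order of levels in M2 was Ckb, Gatm, Oat, Slc7a2, Asl, Slc7a1, Ass1, Arg1, Arg2 and Nos2. In M0 it was Ckb, Gatm, Oat, Asl, Slc7a1, Ass1, Slc7a2, Arg2, Arg1 and Nos2. Among neighbours the library ranges overlapped only for Ass1 and Arg1 in M2 and for Arg1 and Nos2 in M0. Slc7a2 thus took place 4 in M2, against place 7 in M0, and Arg1, level with Nos2 in M0, reached the range of Ass1 in M2.

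**Figure D3:**
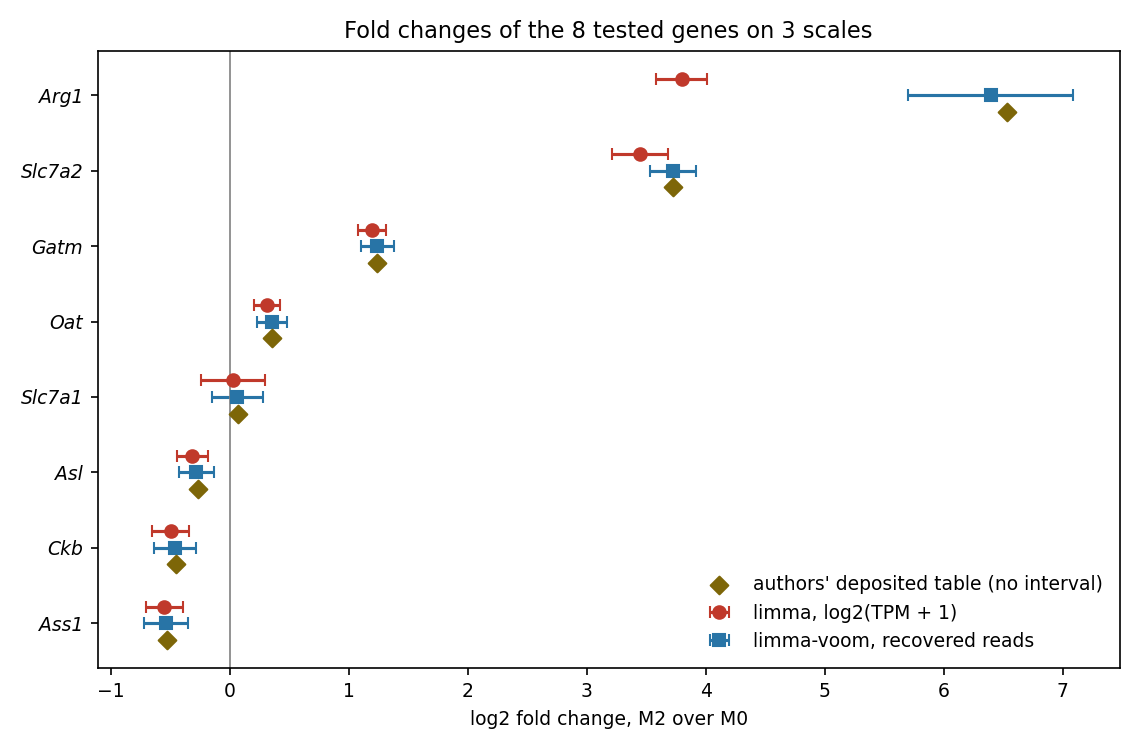
Log2 fold change of M2 over M0 for the 8 tested genes by limma on log2(TPM + 1) and by limma-voom on recovered reads, each with its 95% interval, and as the authors' deposited table gives it. The direction is the same on all 3 scales for every gene, and only Arg1, with 11 reads over M0, is much larger on the other scales than on log2(TPM + 1).

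Across the 6 libraries, the 3 tested genes outside the 10 described here whose centred log2(TPM + 1) profile lay closest to Slc7a2 were Ccl7 (distance 1.28), Socs1 (1.37) and Skil (1.496). The log2 fold changes of Ccl7, Socs1 and Skil were 4.4, 4.51 and 2.23, against 3.45 for Slc7a2, so each differed from it in size. Closest to Gatm were Tmem158 (distance 0.129), Hfe (0.138) and Fbxo33 (0.141).

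Further genes around arginine were taken by role, 70 in all. The rows of Amd1 and Amd2 lie on the same bases and hold nearly the same reads, so they are counted as 1 gene. Of the 49 genes tested in this way, 17 rose and 14 fell, which makes 63.3% called beside 43.7% of all tested genes. Their median log2 fold change was 0.06, against -0.03 over all tested genes. Among other carriers of arginine and dibasic amino acids 3 of 7 tested rose and 0 fell, so that 42.9% were called, close to the 43.7% of all tested genes. Slc7a6, which with Slc3a2 exchanges arginine for neutral amino acids, had 34.9 ± 1.85 TPM in M2 and 22.04 ± 0.321 TPM in M0 (SD, n = 3 each; adjusted p = 9.49e-05 by limma). Slc3a2, the shared heavy chain of such exchangers, was 1.33-fold higher, and Slc25a15, which carries ornithine into mitochondria, 1.31-fold. The CAT family members Slc7a3 and Slc7a4 had at most 3 reads over any group.

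Of genes around nitric oxide 3 of 9 tested fell and 1 rose, so that 44.4% were called, close to the 43.7% of all tested genes. Gch1, the rate-limiting enzyme for the cofactor tetrahydrobiopterin, had 9.41 ± 1.03 TPM in M2 and 20.3 ± 0.588 TPM in M0 (SD, n = 3 each; adjusted p = 4.28e-05 by limma). Por, the electron donor of cytochrome P450 enzymes, fell by 0.59 on the log2 scale, and Ddah2, of the family that breaks down methylated arginines, fell by 0.55. The constitutive synthases Nos1 and Nos3 lay below the filter, Nos1 at 101 reads over M2 and 211 over M0, and Nos3 at 99 over M2 and 114 over M0. In the authors' deposited table Nos1 was lower in M2 (log2 fold change -1.14, adjusted p = 2.79e-04).

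Around the urea cycle 1 of 4 tested genes rose and 2 fell, beside a background of 20.1% called upward and 23.7% downward. Slc25a13, the mitochondrial carrier that exports aspartate, was 1.35-fold higher in M2, while the aspartate aminotransferases Got1 and Got2 were 1.15-fold lower each, and Got2 passed narrowly (adjusted p = 0.0478) and under only 2 of 13 alternatives, which include leaving out M2 replicate 1 but no other library. Got1 lost its call without M0 replicate 2 (adjusted p = 0.0513) and without M0 replicate 3 (0.0507), both by limma. In the authors' deposited table neither Got1 (adjusted p = 0.0645) nor Got2 (0.0867) passed. Cps1, Nags and Otc, the mitochondrial enzymes of the hepatic cycle, had at most 2 reads over either group. Of 2 tested genes of creatine synthesis and transport 1 was called, beside the same background. Gamt, the second enzyme, fell 1.25-fold (adjusted p = 0.0419 by limma), a call that 6 of 13 alternatives kept. That call was lost without M0 replicate 1 (adjusted p = 0.134), M0 replicate 3 (0.134) or M2 replicate 2 (0.123), all by limma. Gamt did not pass in the authors' deposited table (adjusted p = 0.193). The creatine transporter Slc6a8 did not pass (log2 fold change 0.11, adjusted p = 0.226 by limma).

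Between ornithine, proline and glutamate 3 of 8 tested genes rose and 2 fell, or 62.5% called beside 43.7% of all tested genes. Pycrl, of the enzymes that form proline, was 1.34-fold higher, and Pycr1, of the same family, was 1.25-fold lower. Pycr1 passed narrowly (adjusted p = 0.0404 by limma) and did not pass in the authors' deposited table (adjusted p = 0.188). Its call was not followed through the alternatives. From ornithine to polyamines 5 of 11 tested rose and 5 fell, with Amd1 and Amd2 as 1 gene, or 90.9% called beside the same 43.7%. The largest changes were in Smox, spermine oxidase (57.9 ± 1.91 TPM in M2 and 134 ± 1.02 TPM in M0), and Amd1, the decarboxylase that supplies propylamine groups (31.9 ± 1.11 TPM in M2 and 14.9 ± 0.671 TPM in M0; SD, n = 3 each). Among genes that use or sense arginine on or for proteins 4 of 8 tested rose and 1 fell, or 62.5% called beside the same 43.7%. Rars, which charges the arginine tRNA, had 349 ± 16.9 TPM in M2 and 197.5 ± 8.83 TPM in M0 (SD, n = 3 each; adjusted p = 2e-05 by limma). The methyltransferase gene Prmt5 was 1.19-fold higher (adjusted p = 0.0134 by limma). That call held under 12 of 13 alternatives and was lost without M0 replicate 2 (adjusted p = 0.0625 by limma). Castor2, of the same gene family as the arginine sensor Castor1, was 1.80-fold lower. Castor1 itself overlapped between the groups and did not pass (log2 fold change -0.51, adjusted p = 0.0517 by limma).

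**Figure D4:**
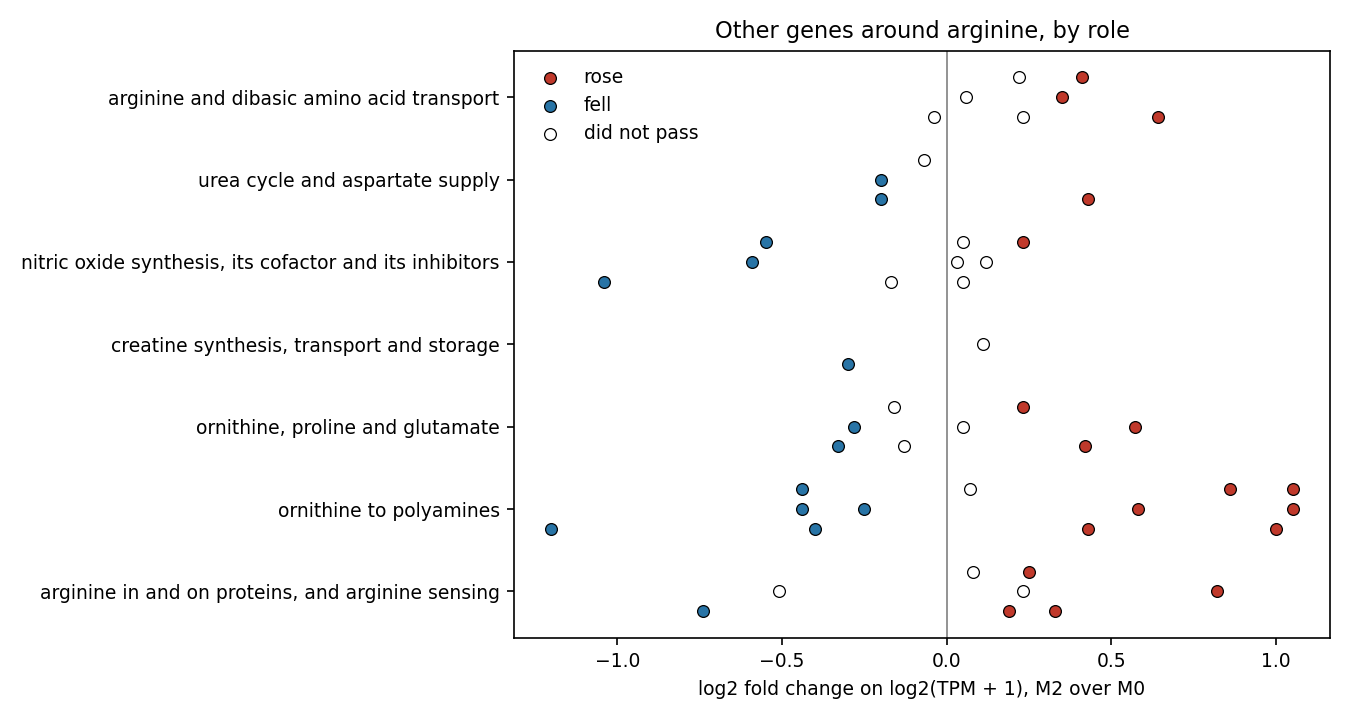
Log2 fold change on log2(TPM + 1), M2 over M0, of the 50 tested rows around arginine in 7 role groups; each dot is a row of the table, Amd1 and Amd2 with 1 each, red where it rose, blue where it fell and white where it did not pass an adjusted p under 0.05. The transport group has 3 red and 0 blue dots, the nitric oxide group 1 red and 3 blue, and the polyamine group reaches furthest on both sides.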

How the data were processed

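Poly(A) RNA of 3 M2 and 3 M0 samples was sequenced, with groups and replicate numbers from the sample titles. The submitters' processing notes list the build mm10 and, as tools without stated roles, HOMER 4.11.1, STAR 2.7.5a, DESeq2 and bcl2fastq. Per the file headers, 1 deposited table holds the authors' TPM per gene, and the other the authors' p-values, raw and adjusted, with a log2 fold change, beside normalized values per library, which are read here as log2-scale from their range. In the authors' comparison a positive log2 fold change means higher in M2, as checked on the columns. Neither table holds counts, so limma 3.58.1 in R 4.3.3 was run on log2(TPM + 1), with a variance trend and Benjamini-Hochberg adjustment, over genes at 1 TPM or more in at least 3 libraries. TPM times model length was divided by the worth of 1 read in that library, which gave reads (100% of checked values within 0.1 of whole). Intervals on reads cover counting error only. Near-identical transcripts were found with blastn 2.17.0 (at least 90% identity over 200 bases) in GENCODE M21, and promoter windows come from RefSeq on GRCm38.p6. The members, lists and tests were chosen with earlier results of these data known. All 10 members were named whatever their result, with up to 3 called genes per role group, by lowest adjusted p, and the 3 closest profiles to Slc7a2 and Gatm; some genes that this rule names are not reported here. Pycr1 and the genes named from below the filter were added to complete counts after their values were seen, as were Slc6a8, Castor1 and Slc7a3, Slc7a4. Alternatives were a pseudocount of 0.1, other filters, median-ratio scaling, the authors' values, limma-voom, the replicate number as a block and leaving out each library.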

Additional observations from a re-analysis of the deposited data

How the results depend on the processing

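Under all 13 alternatives Arg1, Slc7a2, Gatm and Oat rose and Ass1, Asl and Ckb fell. Their log2 fold changes ran from 2.02 to 6.40 for Arg1, 3.06 to 3.73 for Slc7a2, 1.05 to 1.24 for Gatm, 0.29 to 0.36 for Oat, -0.58 to -0.38 for Ass1, -0.35 to -0.22 for Asl and -0.55 to -0.39 for Ckb. For Arg1 the lowest came from limma run on the authors' normalized values per library, and the highest from limma-voom. The authors' own log2 fold change for Arg1, 6.53, is not one of these alternatives. Slc7a1 passed under none (log2 fold change 0.15 and adjusted p = 0.164 at the lowest, without M2 replicate 3) and its sign turned without M0 replicate 1 (-0.06), M2 replicate 1 (-0.05) and M2 replicate 2 (-0.03); the cause was not tested. Of the further genes named by rule, Got1, Got2, Gamt and Prmt5 lost their call under some alternatives.

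Over all genes 4899 were called, 3556 to 5694 with 1 library left out. The share of calls that rose was 45.9%, 52.1% with median-ratio scaling and 50.4% without M2 replicate 3. With the replicate number as a block 4870 genes were called and the same 7 of the 8 tested. Deviations of same-numbered libraries from their group means had correlations of -0.03, 0.21 and 0.03. With 3 libraries per group these values cannot decide whether the numbers pair the samples. Depth limits Arg2 and Nos2, and the M0 level of Arg1. With 3 libraries per group no exact permutation test can go below p = 0.1.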
